A study of Mus musculus with 12 samples.

Results

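Plasmids that carry a miRNA in addition to bone morphogenetic protein 2 (BMP2) were compared, as 1 set, with the plasmid that carries BMP2 alone. All 12 libraries of the series entered the comparison. Of these, 9 came from cells given a hybrid plasmid, with 3 each for pH_BMP2ADV20a, pH_BMP2ADV148b and pH_BMP2ADV590, and 3 came from cells given the reference, pH_BMP2ADV. The members were chosen by the labels alone. The mean of the 3 hybrid group means, with equal weight for each group, was set against pH_BMP2ADV, and genes that went the same way in each hybrid were then taken out. For each hybrid the same 3 reference libraries served as control, so a change common to the hybrids and a peculiarity of the pH_BMP2ADV libraries cannot be told apart.

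The cells of all 4 groups were C3H/10T1/2, a mouse embryonic line of fibroblast morphology, which the labels also give the disease term sarcoma. They were transfected transiently, by a polymer reagent and without a virus, and RNA was taken 3 days later. Only some cells take up DNA in such a transfection, and the RNA was that of the whole culture, so fewer cells of a kind and less RNA per cell cannot be told apart. No untransfected culture was analysed here, and every group received a BMP2 plasmid. A change against pH_BMP2ADV is therefore not measured against cells without a BMP2 plasmid or without transfection. Differences between the groups in plasmid uptake or BMP2 dose were not tested and cannot be told apart from other differences between the plasmids. The library kit, QuantSeq 3' FWD, reads near the 3' end of polyadenylated RNA. Whether the replicates of a group were grown as separate cultures is not stated in the labels, and p-values measure only the spread between these libraries, which may be technical.

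BMP2 is a secreted ligand that binds a pair of receptor kinase types and signals through SMAD transcription factors, and in mesenchymal cells of this kind it is known for turning them towards cartilage and bone. A miRNA is a short RNA that guides a silencing complex to mRNAs, mostly through its seed, bases 2 to 8 from its 5' end. A miRNA from a plasmid has to be cut out of a longer transcript by the cell's own processing enzymes. The hybrids are named for different miRNAs, and a gene counted here as common went the same way with each of those used.

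The mature sequences of the named miRNAs are shown because they mark what differs between the hybrids. They were taken from RefSeq on GRCm38.p6 and are written from 5' to 3' with the seed in capitals. The arm that each plasmid was built to yield was not given in the sources used here, and both arms are shown. For miR-590, only the name is given.
mmu-miR-20a-5p, chr14:115044183-115044205, plus strand: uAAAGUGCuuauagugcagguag
mmu-miR-20a-3p, chr14:115044219-115044240, plus strand: aCUGCAUUacgagcacuuaaag
mmu-miR-148b-5p, chr15:103285148-103285171, plus strand: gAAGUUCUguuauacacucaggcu
mmu-miR-148b-3p, chr15:103285185-103285206, plus strand: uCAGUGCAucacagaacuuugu
None of the 4 seeds printed is the same as another. Reads of the gene Mir148b were found at 21.6, 22.8 and 21.5 normalised CPM (gene counts scaled to library size) in the pH_BMP2ADV148b libraries and were listed at 0 in the other 9. These reads fit the label of that hybrid, and the other hybrid labels were not checked by reads of their miRNA.

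Gene counts per library lay between 9236431 and 14727288, with 17086 to 18055 genes above 0. Mesenchymal genes defined the cells, with Prrx1 at 482 to 589 CPM and Col1a1 at 4041 to 5766 CPM over the 12 libraries, and none of the 14 mesenchymal markers passed the test. Markers of other cells were mostly low but not all absent. Of the macrophage list, Ptprc was at 0.410 CPM or less and Cd14 at 2.78 to 5.73 CPM. Of the epithelial list, Epcam was at 0.518 CPM or less, Cdh1 at 1.16 to 3.18 CPM and Krt19, which was called higher in the hybrids, at 3.89 to 18.5 CPM. Of the neural list, Map2, which was called lower, was at 59.6 to 95.1 CPM and Nes at 13.5 to 25.1 CPM, while Sox10 was at 0. Of the endothelial list, Erg, which was called higher, was at 13.8 to 34.4 CPM, while Cdh5 and Cldn5 were at 0. Neither list moved 1 way. Of 6 tested neural markers 3 changed above 0 and 3 below (median 0.09), and of 3 tested endothelial markers 1 and 2 (median -0.22). The Map2 call was lost without pH_BMP2ADV replicate 2 or 3, and the Erg call held in 6 of 12 runs that each left out 1 library. On the second principal component, pH_BMP2ADV590 replicate 2 stood at -23.4 and the other libraries of its group at 22.6 and 9.63. Without that library 359 genes were called in the mean of the hybrids, against 298 with it. Of the reference libraries, pH_BMP2ADV replicate 3 stood apart, at -9.53 on this component against 8.45 and 12.4 and at -22.1 on the third against -7.17 and -9.81. The transcript Gm42418 took 10.0% of its counts, against 5.78% and 6.28% in the others of its group. Without pH_BMP2ADV replicate 3, 69 genes were called, and the part of these features in that count was not tested. With all 12 libraries and Gm42418 left out of library totals, 297 genes were called.

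The test was made for 13229 genes, and a gene was called where its Benjamini-Hochberg adjusted p was under 0.05. In the mean of the hybrids 298 genes were called, or 2.25% of those tested. Of these, 153 were higher (1.16%) and 145 lower (1.10%) than in pH_BMP2ADV. The sign of the change was the same in each hybrid for 291 of them (2.20%), with 152 higher (1.15%) and 139 lower (1.05%). The same 3 reference libraries enter each of these signs, so a like sign is no independent support. The 7 called genes whose sign differed were Mdm2, Ccl4, Ifi207, Mx1, Ly6e, Gch1 and Mmp9, which were singled out here after their values were seen.

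A narrower set asked more of each hybrid. It held the called genes that went the same way and had an unadjusted p under 0.05 in each hybrid on its own, and is called the common set below. It held 161 genes (1.22%), 79 higher (0.597%) and 82 lower (0.620%). The changes were moderate. The median size was 0.43 on the log2 scale for the higher genes and 0.54 for the lower genes, 86 of the 161 changed by less than 0.5 and 18 by at least 1. In 111 of the 161 genes no hybrid library overlapped a reference library, 44 of them higher and 67 lower. Over all tested genes, such separation of 9 from 3 libraries was found for 175 higher (1.32%) and 215 lower genes (1.63%).

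Size was not even among the hybrids. The change was largest in pH_BMP2ADV590 for 119 of the 161 common genes, in pH_BMP2ADV20a for 26 and in pH_BMP2ADV148b for 16. It was smallest in pH_BMP2ADV148b for 101 genes, in pH_BMP2ADV20a for 48 and in pH_BMP2ADV590 for 12. A test of the difference among the 3 hybrid groups passed for 530 genes (4.01%), and 38 of the 161 common genes were among them. Taken alone, pH_BMP2ADV20a gave 13 higher (0.0983%) and 50 lower genes (0.378%), pH_BMP2ADV148b 28 (0.212%) and 5 (0.0378%), and pH_BMP2ADV590 578 (4.37%) and 515 (3.89%). Only 4 of the 298 genes were called in all 3 hybrids taken alone, namely Mmp11, Gadd45b, Cdsn and 2410006H16Rik, whereas 223 were called in exactly 1 hybrid alone.

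**Figure D1:**
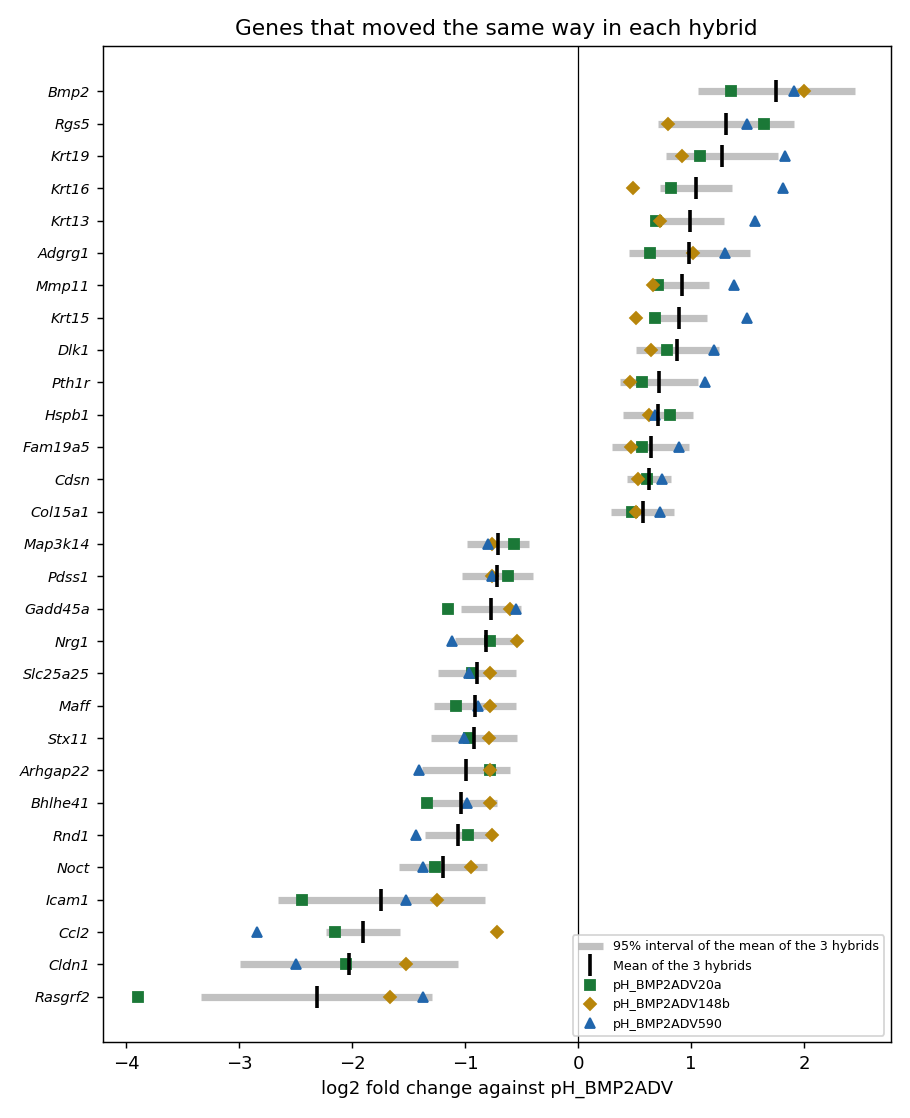
Log2 fold change against pH_BMP2ADV (horizontal axis) of the common genes named by rule, 1 line a gene, with a symbol for each hybrid, a black bar for the mean of the 3 hybrids and a grey band for its 95% interval. All symbols of a gene lie on the same side of 0, which the choice of genes fixes, and the pH_BMP2ADV590 symbol is often the farthest from 0, as for Krt13 at 1.56 against 0.69 and 0.72.

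The count of calls rested on a few libraries and on how the spread was taken. Without pH_BMP2ADV replicate 3 it was 69 genes and without replicate 2 it was 72, and the common set then held 52 and 59 genes. Without pH_BMP2ADV20a replicate 3 the call count was 191, and without pH_BMP2ADV148b replicate 3 it was 190. With the 9 hybrid libraries fitted as 1 group, so that differences among hybrids count as spread, 21 genes were called, 3 higher and 18 lower. With pH_BMP2ADV590 left out of the mean, 46 were called, 16 higher and 30 lower. There were 41 genes called whichever library was left out, 15 higher and 26 lower, and 13 called under every alternative tried. The latter were Cdsn and Rgs2, which were higher, and Tnfaip3, Noct, Rnd1, Bhlhe41, Hmox1, Snhg15, Resf1, Ajuba, Gadd45b, Mt2 and 2410006H16Rik, which were lower.

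**Figure D2:**
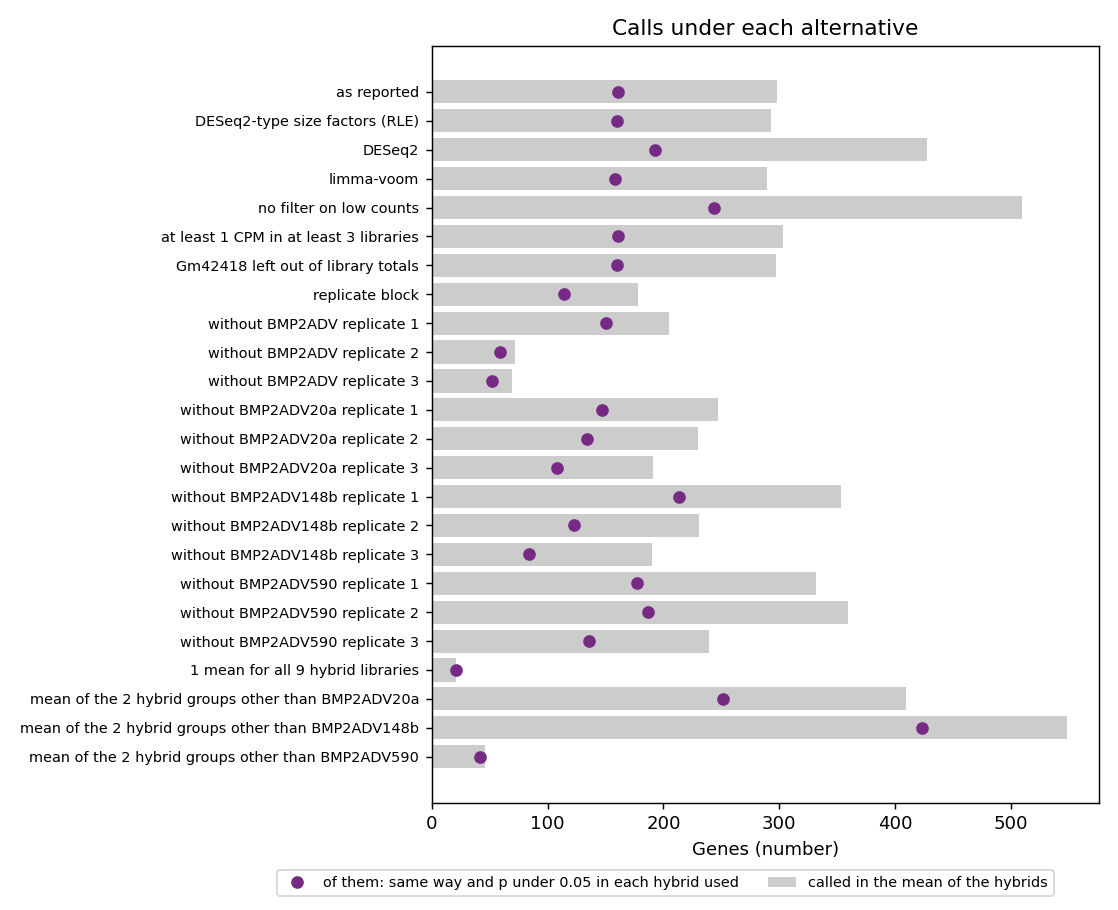
Number of genes (horizontal axis) called in the mean of the hybrids, as grey bars, and in the common set, as purple points, for the reported fit and each alternative. The bars for the runs without pH_BMP2ADV replicate 2 or 3 (72 and 69) and for a single mean of all 9 hybrid libraries (21) are far below the reported 298.

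Bmp2, the gene of the ligand itself, was higher in each hybrid. Bmp2 (ENSMUSG00000027358, GRCm38 chr2:133552159-133562885) stood at 1.77, 1.39 and 0.733 CPM in pH_BMP2ADV. It stood at 4.20, 2.99 and 3.00 CPM in pH_BMP2ADV20a, 3.38, 8.27 and 4.42 in pH_BMP2ADV148b and 4.52, 5.82 and 4.81 in pH_BMP2ADV590. All 9 hybrid libraries were above all 3 reference libraries, although the gene was scarce, with 7 to 24 counts in a reference library and 32 to 78 in a hybrid library. Its mean log2 fold change was 1.75 (SE 0.336, adjusted p = 0.00552), with 1.35 in pH_BMP2ADV20a, 2.00 in pH_BMP2ADV148b and 1.91 in pH_BMP2ADV590. Without pH_BMP2ADV replicate 3 the call was lost (adjusted p = 0.0737). Reads from the plasmid and from the cell's own gene cannot be told apart, because the species of the BMP2 cassette was not given in the sources used here.

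Few other genes of the pathway passed the test. Bmp2 was the only one of 18 tested pathway components (ligands, receptors, SMADs and antagonists) to pass the test, and the median of the list was -0.01 against -0.00314 for all tested genes. Among 17 BMP-SMAD target genes, Hey1 and Grem1 were called higher, beside 1.16% of all tested genes, none was called lower and the list median was 0.16. Hey1 (ENSMUSG00000040289, GRCm38 chr3:8663359-8667256), a transcriptional repressor that BMP and Notch signals both switch on, was at 88.7, 91.6 and 74.3 CPM in pH_BMP2ADV. It was at 110, 107 and 120 CPM in pH_BMP2ADV20a, 99.7, 110 and 126 in pH_BMP2ADV148b and 170, 157 and 161 in pH_BMP2ADV590. The hybrid libraries lay above the reference libraries without overlap, with pH_BMP2ADV590 highest, at a mean log2 fold change of 0.58 (SE 0.0809, adjusted p = 0.000222). This call held whichever library was left out and was lost with 1 mean for all 9 hybrid libraries (adjusted p = 0.113). Id1, Id2 and Id3, the classic early targets of BMP receptors, had changes of 0.03, -0.01 and 0.16 (adjusted p = 0.883, 0.984 and 0.201). Grem1, a secreted BMP antagonist, changed by 0.42, 0.11 and 0.52 in the hybrids (pH_BMP2ADV20a, pH_BMP2ADV148b and pH_BMP2ADV590, an order kept below wherever 3 hybrid values are given). It was lost from the calls without any 1 of 7 libraries, among them pH_BMP2ADV replicates 2 and 3, with adjusted p up to 0.273.

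Some genes of keratinised epithelium rose. Of 11 tested members of the keratin and epidermal list, 6 were called higher and none lower, beside 1.16% of all tested genes called higher. Of these 6, 5 belonged to the common set, beside 0.597% of all tested genes that were higher and in it. The median of the list was 0.46, with 0.61, 0.14 and 0.59 in the 3 hybrids. Cdsn (ENSMUSG00000039518, GRCm38 chr17:35552128-35557180) encodes corneodesmosin, an adhesion protein of the cornified layer. It was at 49.8, 46.2 and 52.1 CPM in pH_BMP2ADV. It was at 79.4, 74.7 and 71.2 CPM in pH_BMP2ADV20a, 59.9, 83.8 and 70.5 in pH_BMP2ADV148b and 75.7, 93.2 and 79.3 in pH_BMP2ADV590. The groups of libraries did not overlap and the hybrids were close to each other, with changes of 0.61, 0.53 and 0.74 and a mean of 0.63 (SE 0.0948, adjusted p = 0.000491).

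Krt15 (ENSMUSG00000054146, GRCm38 chr11:100131758-100135928), a keratin of basal cells, was the most abundant of the 5 on the CPM scale. It was at 223, 207 and 164 CPM in pH_BMP2ADV. It was at 287, 314 and 351 CPM in pH_BMP2ADV20a, 224, 248 and 375 in pH_BMP2ADV148b and 557, 623 and 496 in pH_BMP2ADV590. The lowest hybrid library only just cleared the highest reference library, and pH_BMP2ADV590 stood far above the rest. The mean log2 fold change was 0.89 (SE 0.120, adjusted p = 0.000199). Krt13, a keratin of non-cornified epithelia, went from 29.9 ± 6.97 CPM (SD, n = 3) to 48.5 ± 2.55, 49.6 ± 14.97 and 88.9 ± 13.03 CPM in the 3 hybrids. Krt16, a keratin of activated epidermis, went from 11.9 ± 2.31 to 21.1 ± 1.24, 16.7 ± 4.30 and 42.1 ± 7.25 CPM. The mean changes were 0.99 for Krt13 (SE 0.143, adjusted p = 0.000335) and 1.04 for Krt16 (SE 0.154, adjusted p = 0.000418), and in both genes 1 pH_BMP2ADV148b library lay within the range of the reference. Krt19 rose by 1.27 (SE 0.239, adjusted p = 0.00460) and Anxa8, a calcium- and lipid-binding annexin, by 0.46 (adjusted p = 0.0112). For Krt19, pH_BMP2ADV148b replicate 1 was at 3.89 CPM, below the reference libraries at 4.07, 4.54 and 5.24 CPM.

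Krt10, Krt14, Trp63, Perp and Jup did not pass the test, with values of 0.28, -0.01, -0.40, 0.34 and -0.27. The calls of Cdsn, Krt13, Krt15, Krt16 and Krt19 held with each library left out, at an adjusted p of at most 0.0468. With 1 mean for all 9 hybrid libraries only 1 member of the list, Cdsn, remained called. Krt16 and Krt19 also lost theirs with pH_BMP2ADV590 left out of the mean, with adjusted p of up to 0.160 and 0.111 over these 2 alternatives. Keratin genes lie in a cluster and resemble each other, and reads with more than 1 alignment were not counted, so each is measured by the reads that told it apart. Markers of epithelial cells were low in all groups. Of 11, Krt8, Cldn4 and Cldn7 were listed at 0 in all 12 libraries. The summed level of the 11, which includes Krt19, was 6.88 to 7.51 CPM in pH_BMP2ADV, 12.4 to 13.2 in pH_BMP2ADV20a, 6.66 to 15.8 in pH_BMP2ADV148b and 15.5 to 19.7 in pH_BMP2ADV590. Their part in the keratin result was not tested.

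**Figure D3:**
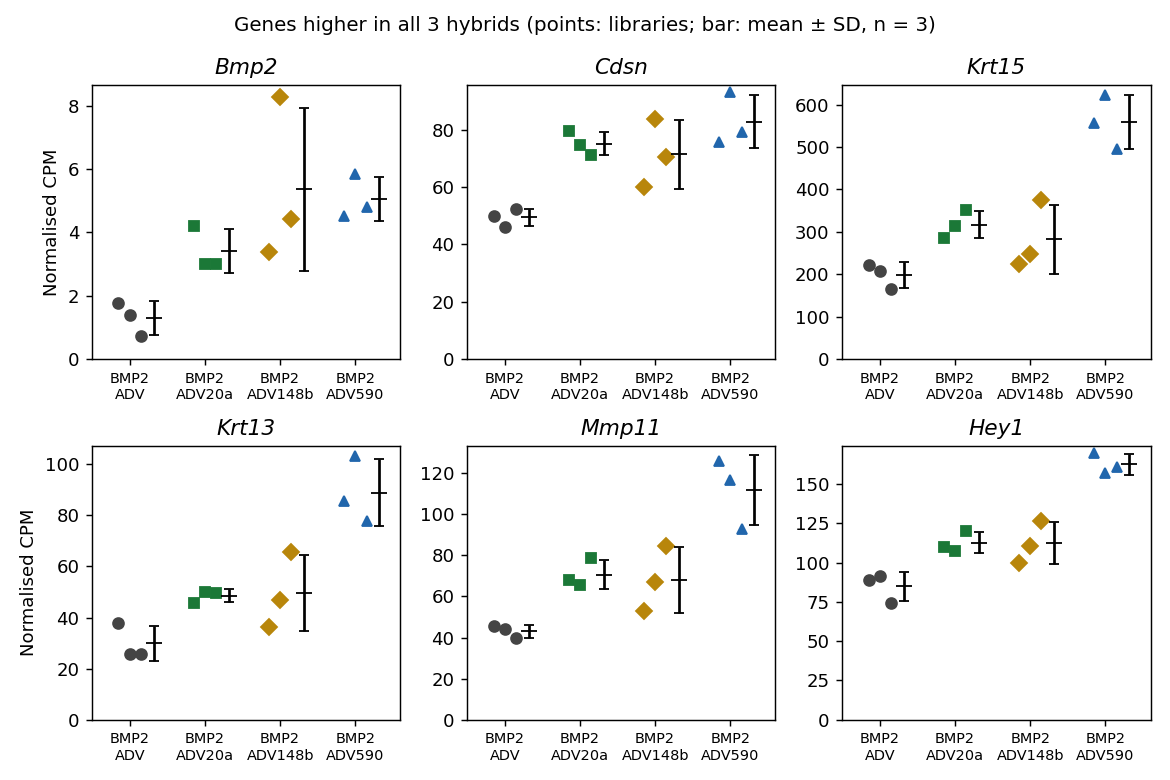
Normalised CPM (vertical axes, from 0) of 6 genes in each of the 12 libraries, by group, with the mean and SD of 3 libraries beside the points. Cdsn is nearly level across the hybrids (means 75.1, 71.4 and 82.7 CPM against 49.4), whereas Krt15, Krt13, Mmp11 and Hey1 are highest in pH_BMP2ADV590.

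Matrix-remodelling enzymes and matrix genes were shifted in part. Among 19 remodelling genes, 5 were called higher and 2 lower, beside 1.16% and 1.10% of all tested genes, with a list median of 0.02. Mmp11 (ENSMUSG00000000901, GRCm38 chr10:75923222-75936496), which encodes the protease stromelysin-3, was at 45.5, 44.1 and 39.6 CPM in pH_BMP2ADV. It was at 67.8, 65.5 and 78.5 CPM in pH_BMP2ADV20a, 52.7, 66.9 and 84.5 in pH_BMP2ADV148b and 126, 117 and 92.9 in pH_BMP2ADV590. The hybrid libraries lay above the reference without overlap, at a mean log2 fold change of 0.91 (SE 0.116, adjusted p = 0.000132). Timp3, a matrix-bound inhibitor of metalloproteinases, rose by 0.33 (SE 0.0592, adjusted p = 0.00302), and both of these calls held whichever library was left out. Both were lost with 1 mean for all 9 hybrid libraries (adjusted p = 0.0542 for Mmp11), and Timp3 was also lost with pH_BMP2ADV590 left out of the mean (adjusted p up to 0.208 over these alternatives). Mmp2, a gelatinase, rose by 0.39 (SE 0.0757, adjusted p = 0.00583), a call lost without pH_BMP2ADV replicate 2 (adjusted p = 0.0699). Adamts5, an aggrecan-cutting enzyme, fell by 0.46 (SE 0.0984, adjusted p = 0.0136), a call lost without pH_BMP2ADV replicate 2 or 3 (adjusted p up to 0.105). The calls of Mmp2 and Adamts5 were also lost with 1 mean for all 9 hybrid libraries and with pH_BMP2ADV590 left out of the mean (adjusted p up to 0.0912 and 0.210). Mmp9 was 1 of the 7 genes with unlike signs, at -4.52, 0.38 and -2.42. In the list as a whole 2 members were called higher without pH_BMP2ADV replicate 2 and 3 without replicate 3, and none lower in either run.

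Some cartilage genes rose in the mean, but unevenly. Of 18 tested, 5 were called higher (Sox9, Col10a1, Hapln1, Fgfr3 and Col2a1) and none lower, beside 1.16% of all tested genes called higher, with a list median of 0.36. By hybrid that median was 0.18, 0.10 and 0.88, and only Sox9 belonged to the common set. Sox9, the transcription factor that directs cartilage formation, rose by 0.43 (SE 0.0837, adjusted p = 0.00574), with 0.27, 0.26 and 0.77 in the 3 hybrids. Col10a1, a collagen of hypertrophic cartilage, had 0.32, 0.10 and 1.36, and Hapln1, which links aggrecan to hyaluronan, had 0.19, 0.14 and 1.23. The size of the change differed among hybrids for Sox9, Col10a1, Hapln1 and Fgfr3 (adjusted p = 0.00206, 1.76e-05, 1.76e-05 and 0.00310). The count of 5 became 0 without pH_BMP2ADV replicate 3, 1 without replicate 2 and 8 without pH_BMP2ADV148b replicate 1, and it was 0 with pH_BMP2ADV590 left out of the mean.

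Of 16 osteoblast genes, Pth1r, Sparc and Mef2c were called higher and none lower, beside 1.16% of all tested genes called higher. The list median was 0.16. Pth1r, the receptor of parathyroid hormone, rose by 0.71 (SE 0.169, adjusted p = 0.0240), with 1 reference library at 14.0 CPM, the others at 24.8 and 24.2 and hybrid libraries from 22.01 to 50.99, so the groups overlapped. Sparc, a collagen-binding matrix protein, rose by 0.28 (SE 0.0649, adjusted p = 0.0200). Only 1 of these 3 genes stayed called without pH_BMP2ADV replicate 2 or without replicate 3. Among 24 genes of the extracellular matrix, Col6a1, Col6a2, Mfap5 and Fmod were called higher, beside the same 1.16% of all tested genes. None of them was in the common set. Without pH_BMP2ADV replicate 2 none of the 24 was called higher, without replicate 1 it was 2 and without replicate 3 it was 1.

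Genes of other functions rose in the common set as well. Dlk1, a membrane protein that holds back fat cell formation, went from 8.41 ± 1.06 to 14.6 ± 1.88, 13.2 ± 5.02 and 19.5 ± 1.24 CPM in the 3 hybrids (log2 fold change 0.88, SE 0.178, adjusted p = 0.00913). Rgs5, a brake on G-protein signals in pericytes, rose by 1.31 (SE 0.290, adjusted p = 0.0172) from at most 1.99 CPM. The small heat shock gene Hspb1 rose by 0.71 (SE 0.1502, adjusted p = 0.0134). Adgrg1, an adhesion receptor, rose by 0.98 (adjusted p = 0.0451), the secreted peptide gene Fam19a5 by 0.64 (adjusted p = 0.0415) and the basement membrane collagen Col15a1 by 0.57 (adjusted p = 0.0230). All 6 of these calls were lost without pH_BMP2ADV replicate 2 and without replicate 3, with adjusted p up to 0.275 over the left-out libraries. Rgs2, another regulator of G-protein signals, was at 94.9, 102 and 92.1 CPM in pH_BMP2ADV and at 116 to 138 CPM in the 9 hybrid libraries. These did not overlap, at a log2 fold change of 0.41 (SE 0.0712, adjusted p = 0.00223) that kept its call under every alternative.

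A pair of retinoic acid genes rose. Of 8 tested, 2 were called higher, both in the common set, and none lower. Over all tested genes, 1.16% were called higher and 0.597% were higher and in the common set. The list median was 0.07. Cyp26b1, the enzyme that breaks down retinoic acid, was at 227, 230 and 166 CPM in pH_BMP2ADV. It ran from 254 to 432 CPM in the hybrids, with a median of 321, and did not overlap with the reference. Its log2 fold change was 0.65 (SE 0.111, adjusted p = 0.00221), and its call held whichever library was left out but not with 1 mean for all 9 hybrid libraries (adjusted p = 0.0519). Dhrs3, which turns retinaldehyde back into retinol, rose by 0.54 (SE 0.0957, adjusted p = 0.00301), a call just lost without pH_BMP2ADV replicate 3 (adjusted p = 0.0528). Its call was also lost with 1 mean for all 9 hybrid libraries and with pH_BMP2ADV590 left out of the mean (adjusted p up to 0.117).

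The falls were led by inflammatory genes. Of 23 tested genes of the NF-kB inflammatory list, 11 were called lower and none higher, beside 1.10% of all tested genes called lower, and the list median was -0.68. By hybrid the median was -0.57, -0.19 and -1.05. Ccl2, Tnfaip3, Csf1 and Icam1 belonged to the common set, beside 0.620% of all tested genes that were lower and in it. Ccl2 (ENSMUSG00000035385, GRCm38 chr11:82035571-82037453), the chemokine that calls in monocytes, was at 28.4, 25.6 and 26.3 CPM in pH_BMP2ADV. It was at 6.36, 6.51 and 5.06 CPM in pH_BMP2ADV20a, 20.6, 17.4 and 10.8 in pH_BMP2ADV148b and 4.59, 2.51 and 4.00 in pH_BMP2ADV590. No hybrid library reached the reference, but pH_BMP2ADV148b lay between the others and the reference. The mean log2 fold change was -1.90 (SE 0.159, adjusted p = 2.25e-07).

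Tnfaip3 (ENSMUSG00000019850, GRCm38 chr10:19000910-19015657), the ubiquitin-editing protein A20 that shuts NF-kB signalling off, was at 8.28, 6.40 and 8.38 CPM in pH_BMP2ADV. It was at 2.73, 2.17 and 2.15 CPM in pH_BMP2ADV20a, 5.12, 4.24 and 3.15 in pH_BMP2ADV148b and 2.12, 1.34 and 1.70 in pH_BMP2ADV590. The order of the groups was that of Ccl2, without overlap of hybrid and reference, and the log2 fold change was -1.57 (SE 0.223, adjusted p = 0.000259). Csf1, the growth factor of macrophages, fell from 138 ± 8.21 to 93.2 ± 2.83, 104 ± 12.1 and 66.5 ± 14.8 CPM (-0.68, SE 0.0930, adjusted p = 0.000219). Icam1, a leukocyte adhesion molecule, was scarce, with 25, 41 and 30 counts in the reference and 3 to 20 in a hybrid library (-1.74, SE 0.442, adjusted p = 0.0370). Map3k14, the kinase NIK of the non-canonical NF-kB route, was not on the list but fell in the common set (-0.71, SE 0.133, adjusted p = 0.00444).

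The chemokine genes Cxcl1 and Ccl7 were called lower in the mean, at -1.07 and -1.12 (adjusted p = 0.000259 and 0.000348), and differed among the hybrids (adjusted p = 0.000532 and 2.41e-05). In pH_BMP2ADV148b their values were -0.32 and -0.06, against -1.63 and -1.55 in pH_BMP2ADV20a and -1.25 and -1.76 in pH_BMP2ADV590. Relb, Vcam1, Cxcl5, Ccl20 and Mmp9 were the other called members, at -0.87, -0.41, -0.96, -2.63 and -2.19. The core subunits were not called, with Nfkb1 at -0.00325, Nfkb2 at -0.10 and Rel at -0.34, nor was the inhibitor Nfkbia, at -0.21 (adjusted p = 0.0573). The calls of Ccl2, Tnfaip3, Csf1, Cxcl1 and Ccl7 held whichever library was left out. Where 1 mean was taken for all 9 hybrid libraries, Tnfaip3 kept its call (adjusted p = 0.0349), and Ccl2, Csf1, Cxcl1 and Ccl7 lost theirs (adjusted p = 0.0988, 0.0973, 0.160 and 0.302). The calls of Icam1 and Map3k14 were each lost without pH_BMP2ADV replicate 3, and that of Icam1 also without 8 other libraries, with adjusted p up to 0.251. Icam1 further lost its call with 1 mean for all 9 hybrid libraries and with pH_BMP2ADV20a or pH_BMP2ADV590 left out of the mean (adjusted p up to 0.160). Map3k14 kept its call under these alternatives. Of the 23, 6 were called lower without pH_BMP2ADV replicate 2 or 3, and 7 without replicate 1 or 3 of pH_BMP2ADV20a or replicate 3 of pH_BMP2ADV148b. Macrophage markers were scarce, summing to 6.70 to 7.14 CPM over 10 genes in pH_BMP2ADV and 5.74 to 11.1 in the hybrids, with Adgre1 and Tyrobp listed at 0.

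Interferon-response genes, by contrast, gave no common gene. Of 40 tested, Mx2, Mx1, Ifi204 and Ifi207 were called lower and Ly6e higher in the mean. Over all tested genes, 1.10% were called lower and 1.16% higher. The list median was -0.12. By hybrid, that median was -0.21, 0.29 and -0.41. Mx1, an antiviral GTPase, had -1.01, 0.57 and -1.14, and the difference among hybrids passed the test (adjusted p = 2.38e-07). Mx2 had -0.89, -0.12 and -1.11 and was the only one of the 5 whose call held whichever library was left out, although it was lost with 1 mean for all 9 hybrid libraries (adjusted p = 0.222). A count of 1 member lower was found without pH_BMP2ADV replicate 2 or 3 and of 2 without pH_BMP2ADV20a replicate 3 or pH_BMP2ADV148b replicate 3.

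**Figure D4:**
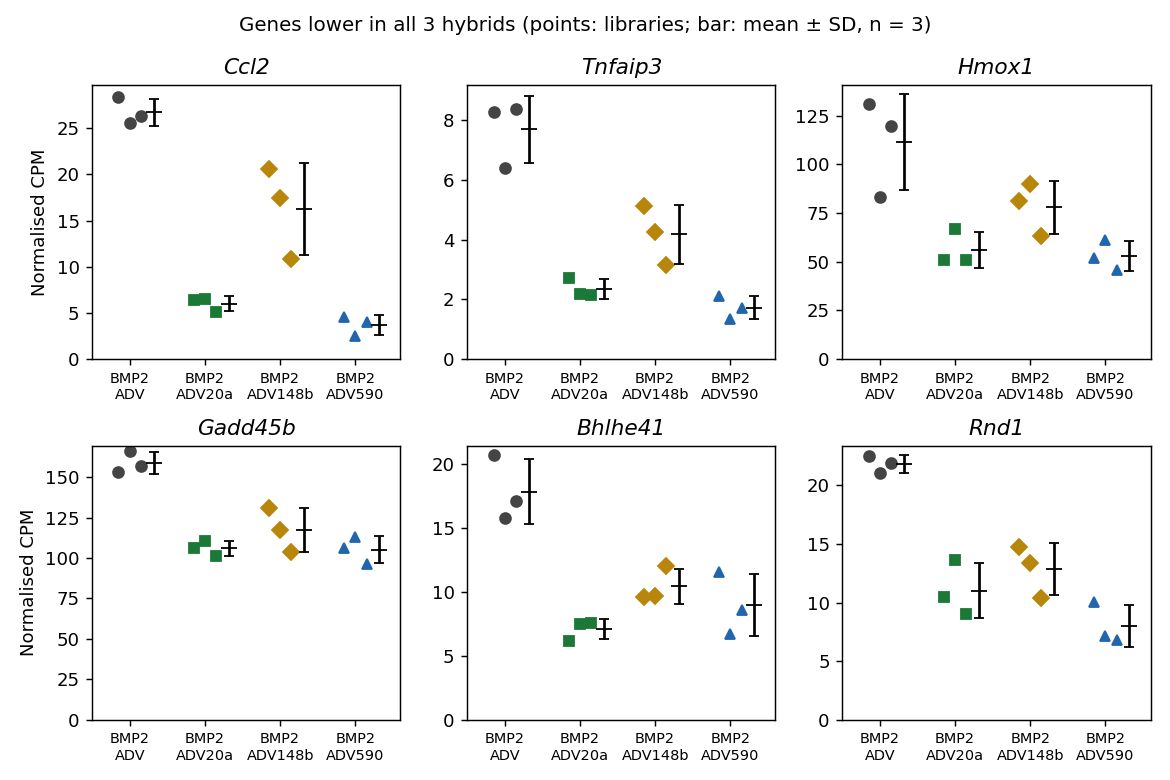
Normalised CPM (vertical axes, from 0) of 6 genes in each of the 12 libraries, by group, with the mean and SD of 3 libraries beside the points. For Ccl2 and Tnfaip3 the pH_BMP2ADV148b libraries lie between the reference and the other hybrids, while Gadd45b is near level across the hybrids at 96.3 to 131 CPM against 153 to 166.

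Several genes that oscillate with the circadian clock fell. Of 16 tested, 6 were called lower and none higher, 5 of them in the common set, beside 1.10% of all tested genes called lower and 0.620% in the common set and lower. The list median was -0.32, with -0.38, -0.15 and -0.32 by hybrid. Bhlhe41 (ENSMUSG00000030256, GRCm38 chr6:145858243-145865558), a repressor that acts through E-box motifs, was at 20.7, 15.8 and 17.1 CPM in pH_BMP2ADV. It was at 6.15, 7.48 and 7.59 CPM in pH_BMP2ADV20a, 9.62, 9.65 and 11.99 in pH_BMP2ADV148b and 11.6, 6.72 and 8.61 in pH_BMP2ADV590. The reference libraries stood clear of all 9, at a log2 fold change of -1.03 (SE 0.154, adjusted p = 0.000423). Noct, nocturnin, a phosphatase with strong daily rhythm, fell from 12.6 ± 1.81 to 5.15 ± 1.51, 6.50 ± 1.85 and 4.81 ± 0.729 CPM (-1.20, SE 0.190, adjusted p = 0.000852). Bhlhe40, Per1, Nr1d2 and Nr1d1 fell by 0.52, 0.44, 0.32 and 0.45 on the log2 scale (adjusted p = 0.0222, 0.0265, 0.0293 and 0.0470).

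The activators of the clock did not pass the test, with Clock at 0.04 and Arntl at 0.05, nor did Cry1, Cry2, Per3 or Tef, at -0.02, 0.07, 0.20 and 0.13. The calls of Bhlhe41 and Noct held under every alternative. Only 2 of the 16 were called without pH_BMP2ADV replicate 2 or 3, and 3 without pH_BMP2ADV replicate 1 or pH_BMP2ADV148b replicate 3. The hour of harvest is not given in the labels, and its part in these values was not tested.

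The 3 Gadd45 genes and Mt2 fell. Gadd45b (ENSMUSG00000015312, GRCm38 chr10:80930073-80932204), a stress sensor that binds MAP kinase kinases, was at 153, 166 and 157 CPM in pH_BMP2ADV. It was at 106, 110 and 101 CPM in pH_BMP2ADV20a, 131, 117 and 104 in pH_BMP2ADV148b and 106, 113 and 96.3 in pH_BMP2ADV590. The hybrid values were close to each other and below the reference without overlap, at a log2 fold change of -0.54 (SE 0.0711, adjusted p = 0.000199). Its relatives Gadd45a and Gadd45g fell by 0.77 (SE 0.128, adjusted p = 0.00145) and 0.60 (SE 0.0757, adjusted p = 0.000132). All 3 calls held whichever library was left out, but with 1 mean for all 9 hybrid libraries those of Gadd45a and Gadd45g were lost (adjusted p = 0.0771 and 0.0662). Mt2, a metal-binding metallothionein, was at 112, 109 and 109 CPM in the reference and at 68.3 to 91.5 in the hybrids (-0.50, SE 0.0775, adjusted p = 0.000759).

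Of 22 p53-response genes, 5 were called lower and none higher, 4 of them in the common set, beside the same 1.10% and 0.620% of all tested genes, with a list median of -0.21. Gdf15, a secreted stress cytokine, went from 10.5, 7.97 and 7.43 CPM to between 2.70 and 5.53 in the 9 hybrid libraries. That is a log2 fold change of -1.19 (SE 0.218, adjusted p = 0.00396), with similar values of -1.18, -1.07 and -1.32 in the hybrids. Bbc3, the cell-death protein PUMA, and the kinases Plk2 and Plk3 fell by 0.51, 0.34 and 0.51 (adjusted p = 0.00668, 0.0120 and 0.0415). Cdkn1a, the best known p53 target, had 0.00 with an adjusted p of 0.987, and Bax had 0.01 (adjusted p = 0.986). Only 1 of the 22 was called without pH_BMP2ADV replicate 1, with 2 and 3 called without replicates 2 and 3, and Gdf15 narrowly missed without replicate 1 (adjusted p = 0.0508).

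Over all tested genes, 1.10% were called lower and 0.620% were lower and in the common set. Of 18 genes of the ATF4 amino acid response, 4 were called lower and none higher, all in the common set. These were Slc7a11, the cystine importer, at -0.94 (adjusted p = 0.00552), the stress factor Atf3 at -1.003 (adjusted p = 0.00931), Chac1, which degrades glutathione, at -0.56 (adjusted p = 0.0159), and the pseudokinase gene Trib3 at -0.49 (adjusted p = 0.00523). The biosynthetic members Asns, Psat1 and Phgdh had 0.02, -0.07 and 0.12 and were not called, and the list median was -0.13. Each of the 4 calls was lost without at least 1 pH_BMP2ADV library, and 2 genes were called without replicate 2 or 3. All 4 calls were also lost with 1 mean for all 9 hybrid libraries and with pH_BMP2ADV590 left out of the mean (adjusted p up to 0.242). Of 21 immediate early genes, Fosl1, Maff, Atf3 and Klf6 were called lower and none higher, beside the same 1.10% called lower. The list median was -0.13. Fosl1, a partner of Jun in AP-1, fell by 0.87 (SE 0.121, adjusted p = 0.000222) in a call that held whichever library was left out but not with 1 mean for all 9 hybrid libraries (adjusted p = 0.0988), and Maff fell by 0.92 (SE 0.176, adjusted p = 0.00552), a call lost without pH_BMP2ADV replicate 1 or 3. Fos, Jun and Egr1 had -0.09, -0.13 and -0.28 and were not called. Without any 1 of the pH_BMP2ADV libraries, 2 of the 21 were called.

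The NRF2 antioxidant list moved both ways, with 2 of 14 called higher and 3 lower, beside 1.16% and 1.10% of all tested genes. Its median was -0.22. Hmox1 (ENSMUSG00000005413, GRCm38 chr8:75093621-75100589), which degrades haem, was at 131, 83.5 and 120 CPM in pH_BMP2ADV. It was at 50.8, 66.6 and 50.8 CPM in pH_BMP2ADV20a, 81.0, 90.0 and 63.2 in pH_BMP2ADV148b and 51.9, 61.1 and 45.8 in pH_BMP2ADV590. Only pH_BMP2ADV148b replicate 2 reached the range of the reference, and the log2 fold change was -0.86 (SE 0.116, adjusted p = 0.000199). Nqo1, a quinone reductase of the same list, moved the other way, from 272 ± 17.1 to 344 ± 23.03, 315 ± 12.2 and 382 ± 18.9 CPM (0.35, SE 0.0641, adjusted p = 0.00436), a call lost without pH_BMP2ADV replicate 3 (adjusted p = 0.0737). The Nqo1 call was also lost with 1 mean for all 9 hybrid libraries and with pH_BMP2ADV590 left out of the mean (adjusted p up to 0.111). Of the list's higher calls none was left without pH_BMP2ADV replicate 3. Of its lower calls 1 was left without pH_BMP2ADV replicate 2, while without pH_BMP2ADV148b replicate 1 there were 5.

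Further common falls were spread over functions. Rnd1 (ENSMUSG00000054855, GRCm38 chr15:98663421-98677461), a GTPase that loosens the actin skeleton, was at 22.5, 21.0 and 21.9 CPM in pH_BMP2ADV. It was at 10.5, 13.6 and 8.99 CPM in pH_BMP2ADV20a, 14.7, 13.4 and 10.4 in pH_BMP2ADV148b and 10.0, 7.17 and 6.81 in pH_BMP2ADV590. The reference libraries were tightly grouped and far above the rest, at a log2 fold change of -1.06 (SE 0.144, adjusted p = 0.000211). Nrg1, a ligand of ERBB receptors, fell by 0.81 (SE 0.133, adjusted p = 0.00123). Snhg15, a host transcript of small nucleolar RNA, went from 66.8, 55.7 and 59.3 CPM to 33.1, 35.8 and 34.6 in pH_BMP2ADV20a, 50.1, 38.8 and 38.6 in pH_BMP2ADV148b and 26.3, 27.8 and 26.5 in pH_BMP2ADV590 (-0.83, SE 0.0893, adjusted p = 1.50e-05). Resf1, a partner of retroelement silencing, and Ajuba, a LIM-domain scaffold, fell by 0.66 and 0.57 (adjusted p = 0.000132 and 0.000509). All 5 of these calls held whichever library was left out, and that of Nrg1 was lost with 1 mean for all 9 hybrid libraries (adjusted p = 0.0519).

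Arhgap22, Stx11, Slc25a25 and Pdss1 fell by 0.99, 0.92, 0.90 and 0.72 on the log2 scale (adjusted p = 0.00523, 0.00698, 0.00436 and 0.0134). They encode a GTPase activator for Rac, a syntaxin, a mitochondrial carrier of ATP-Mg and a subunit of the enzyme that builds the tail of coenzyme Q. The calls of these 4 were lost without pH_BMP2ADV replicate 3, with adjusted p up to 0.105. Among the scarce genes, Cldn1, a tight-junction protein, had 20 to 29 counts in a reference library and 1 to 8 in a hybrid library (-2.03, SE 0.466, adjusted p = 0.0200). Rasgrf2, an exchange factor for Ras, had 15 to 22 counts in the reference against 0 to 3 in the pH_BMP2ADV20a libraries and 4 to 11 in the others (-2.31, SE 0.494, adjusted p = 0.0137). Their fold changes are imprecise at these counts, and both calls were lost without pH_BMP2ADV replicate 2 or 3, with adjusted p up to 0.175.

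Some lists showed few or no calls. None of the tested members was called for MHC class I presentation (15 genes), nucleic acid sensing (12), DNA replication (26), TGF-beta targets (17), miRNA processing (15), mitochondrial transcripts (7) or ribosomal proteins (26). At an unadjusted p under 0.05 there were 2, 1, 6, 1, 4, 0 and 1 genes in these lists, in the same order, and 1924 of all 13229. Of 25 mitosis genes, all had a mean change below 0, with a median of -0.19, beside 6712 of all 13229 tested genes below 0. In the DNA replication list, 24 of 26 were below 0, with a median of -0.14. Of the mitosis genes 1 was called lower, beside 1.10% of all tested genes, namely Ccna2 at -0.30 (adjusted p = 0.0478). That call was lost without any 1 of 9 libraries, pH_BMP2ADV replicates 2 and 3 among them. In adipocyte genes Scd1 and Fasn, enzymes of fatty acid synthesis, were called higher and none lower of 12, beside 1.16% of all tested genes called higher. In hypoxia and glycolysis genes Hk2 and Vegfa were called lower, beside 1.10% of all tested genes, and none of the 19 was called higher. None of the calls in these last pairs of genes remained without pH_BMP2ADV replicate 2.

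**Figure D5:**
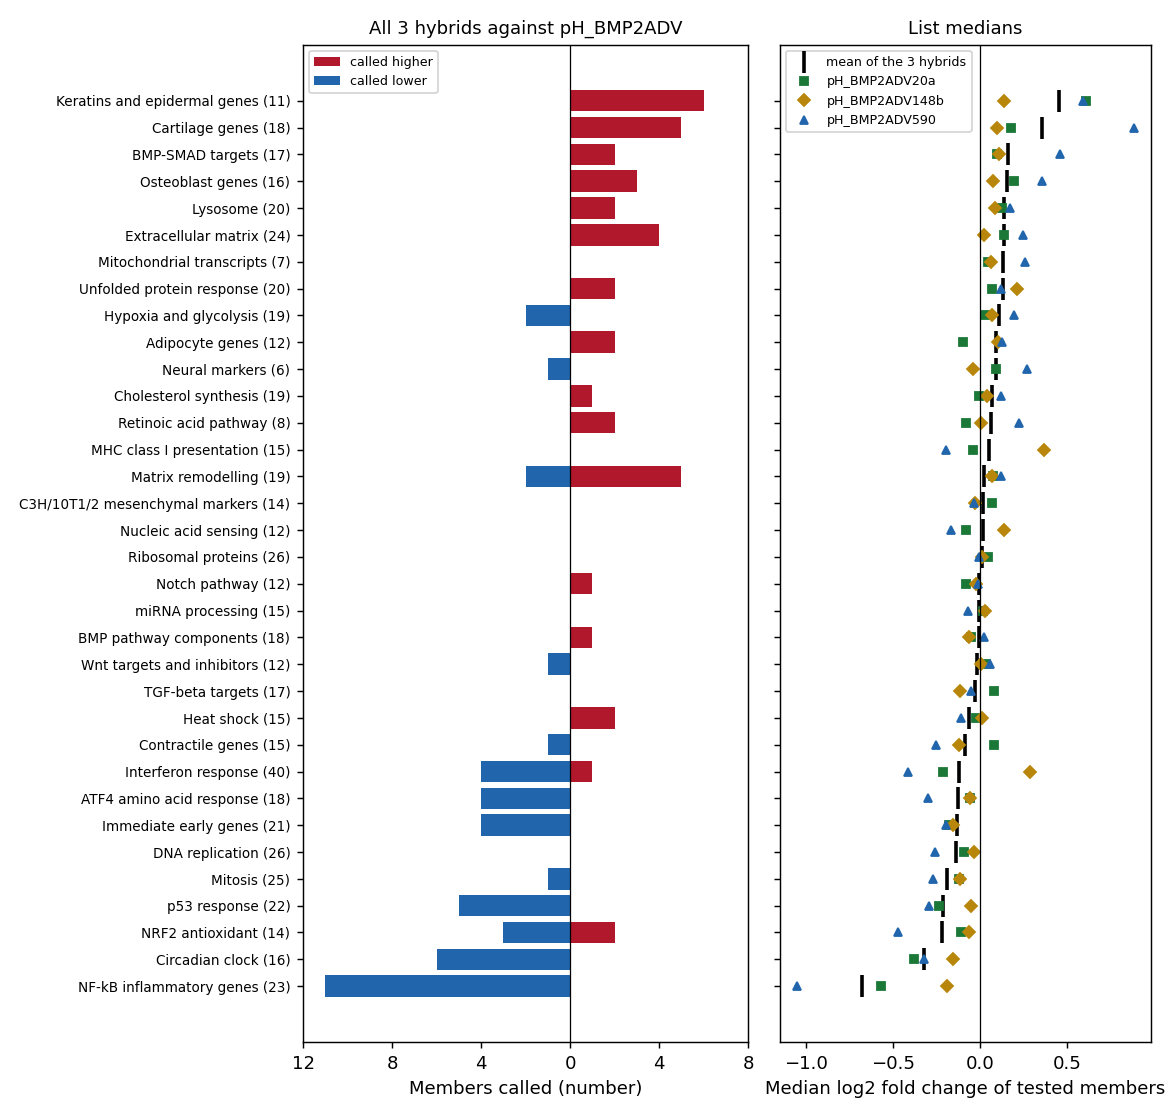
Gene lists with at least 5 tested members (number in brackets), with members called higher (red) and lower (blue) in the mean of the hybrids on the left and the median log2 fold change in each hybrid and in their mean on the right. Keratin and cartilage genes are at the top (medians 0.46 and 0.36) and NF-kB inflammatory genes at the foot (-0.68), where the pH_BMP2ADV148b symbol (-0.19) is nearer to 0 than the pH_BMP2ADV590 symbol (-1.05).

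Promoters were read for genes that kept their call under every alternative, since these calls depended least on the processing. Windows from 250 bases before to 50 bases after the gene start were taken from RefSeq on GRCm38.p6. Of the 161 common genes, 53 higher and 66 lower ones had a window. On both strands, 5 motifs were searched, namely AP-1 (TGANTCA), the cAMP response element (TGACGTCA), NF-kB (GGG, any 3 bases, then TTCC), the antioxidant element (TGACNNNGC, which can overlap AP-1) and the E-box (CACGTG). Of the 13 genes, 11 had a window and 6 of these held at least 1 match. The 5 of them with an established name are shown, and capitals mark the matches.
Tnfaip3 promoter, chr10:19015361-19015660, minus strand: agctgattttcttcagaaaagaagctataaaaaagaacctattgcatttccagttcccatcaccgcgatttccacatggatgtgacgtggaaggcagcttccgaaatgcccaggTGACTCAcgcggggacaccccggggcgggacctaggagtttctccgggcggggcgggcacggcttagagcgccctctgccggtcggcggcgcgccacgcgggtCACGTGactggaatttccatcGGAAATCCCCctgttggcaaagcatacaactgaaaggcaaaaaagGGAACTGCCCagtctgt
Snhg15 promoter, chr11:6528711-6529010, minus strand: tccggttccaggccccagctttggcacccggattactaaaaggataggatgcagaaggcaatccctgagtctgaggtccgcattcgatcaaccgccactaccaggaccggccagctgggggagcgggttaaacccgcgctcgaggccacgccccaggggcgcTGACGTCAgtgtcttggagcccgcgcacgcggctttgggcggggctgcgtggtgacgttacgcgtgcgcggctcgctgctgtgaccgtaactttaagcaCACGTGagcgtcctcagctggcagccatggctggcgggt
Bhlhe41 promoter, chr6:145865371-145865670, minus strand: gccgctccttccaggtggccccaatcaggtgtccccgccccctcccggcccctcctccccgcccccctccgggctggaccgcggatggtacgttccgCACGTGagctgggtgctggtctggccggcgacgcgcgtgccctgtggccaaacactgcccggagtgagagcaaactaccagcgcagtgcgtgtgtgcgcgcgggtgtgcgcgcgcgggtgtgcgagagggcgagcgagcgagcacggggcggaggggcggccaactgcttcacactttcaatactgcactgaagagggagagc
Gadd45b promoter, chr10:80929841-80930140, plus strand: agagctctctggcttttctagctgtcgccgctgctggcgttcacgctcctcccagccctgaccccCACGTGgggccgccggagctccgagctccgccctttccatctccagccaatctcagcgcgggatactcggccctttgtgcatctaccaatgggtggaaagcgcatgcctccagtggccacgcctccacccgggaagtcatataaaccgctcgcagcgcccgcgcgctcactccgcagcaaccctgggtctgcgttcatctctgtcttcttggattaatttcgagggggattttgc
Mt2 promoter, chr8:94172368-94172667, plus strand: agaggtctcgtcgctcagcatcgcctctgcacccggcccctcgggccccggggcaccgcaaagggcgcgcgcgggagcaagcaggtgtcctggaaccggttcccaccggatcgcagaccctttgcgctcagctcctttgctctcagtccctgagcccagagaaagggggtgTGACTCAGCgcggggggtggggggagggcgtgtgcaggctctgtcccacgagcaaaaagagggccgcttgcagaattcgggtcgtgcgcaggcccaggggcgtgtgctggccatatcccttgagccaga
Tnfaip3 has 2 windows, and the rule was to show the window with the most of the 5 motifs. That window held an AP-1, an E-box and a pair of NF-kB matches. Snhg15 held a cAMP response element and an E-box, Bhlhe41 and Gadd45b an E-box each, and Mt2 an AP-1 match inside an antioxidant element.

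A gene was counted as holding a motif where any of its windows held it. The E-box was found in 17 of the 66 common lower genes with a window (25.8%) and in 1 of the 53 common higher genes (1.89%). Its share was 11.8% of the 9569 tested genes with a window. Counted by single windows, an unlike measure, it was 7.15% of all 32851 windows. The NF-kB motif was in 6.06% of the lower and 5.66% of the higher genes, against 7.17% of tested genes. The AP-1 motif was in 9.09% of the lower and 7.55% of the higher genes, against 6.04% of tested genes. The cAMP response element was in 9.09% of the lower and 5.66% of the higher genes (3.64% of tested genes), and the antioxidant element in 22.7% and 17.0% (16.8%). These shares describe letters in short windows; no test was made on them, and the motifs were chosen with the called genes known.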

How the data were processed

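Counts per gene were deposited by the authors, 1 file per library, without normalisation. The submitters' processing notes name FastQC 0.11.5, STAR 2.5.2a for alignment, HTSeq 0.6.0 for counting, and the build GRCm38. Reads of overlapping genes cannot be told apart, since the strand setting was not given in the sources used here. Lines that name no gene, mostly reads with several alignments, were 52.2% to 54.4% of a library's records and were left out. Of 47643 genes, 47224 received a symbol from GENCODE M21.

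With edgeR 4.0.16 (R 4.3.3), group means were fitted over the 12 libraries (TMM scaling, filterByExpr, quasi-likelihood F-test, Benjamini-Hochberg over all tested genes, threshold 0.05). The common biological coefficient of variation was 0.117. CPM values are normalised by the TMM-scaled library size and are not corrected for transcript length. Alternatives were DESeq2-type size factors, DESeq2 1.42.0, limma-voom (limma 3.58.1), other count filters, Gm42418 left out of totals, a replicate block, each library left out, 1 mean for all hybrids and each hybrid left out of the mean. After group means were taken out, same-numbered libraries of different groups had correlations of -0.113 to 0.0715, and libraries of different number -0.0905 to 0.115. No pairing by number was seen, but with 3 libraries a group these values cannot decide whether same-numbered libraries belong together. Libraries of a group differed by more than sampling noise, at a chi-square per degree of freedom of 6.43 to 29.8. Gm42418, at 4.07% to 10.0% of a library's gene counts, was not left out of this value, and its part in it was not tested.

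The comparison and the gene lists were chosen with earlier results of these data known. Named by rule were Bmp2 and Mir148b. From the common set came the 12 genes in each direction with the largest smallest change over the hybrids and at least 10 CPM in 1 group, and 3 below that. Of called genes that differed among hybrids, 4 in each direction were taken, and of each list the called members of smallest p, at most 4. Genes called under every alternative, the genes of unlike sign, Gadd45g, Map3k14 beside its list and the other members of lists given with values were named after their values were seen. Models with no established name were only counted, apart from 2410006H16Rik. For 1 gene taken by the rule, the result is not reported here.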

Additional observations from a re-analysis of the deposited data

Results flagged for a closer look

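Among the genes named by rule, 35 changed by different amounts in the 3 hybrids, by the edgeR test of the difference among the hybrid groups (adjusted over all 13229 tested genes), and are given here with its adjusted p. In inflammatory and interferon genes, pH_BMP2ADV148b lay nearest to or above the reference: Mx1 (2.38e-07), Ccl2 (7.28e-06), Ccl7 (2.41e-05), Mx2 (2.83e-05), Cxcl1 (0.000532), Ifi207 (0.000828), Csf1 (0.00437), Ifi204 (0.0078) and Tnfaip3 (0.0461). The same was seen for Mdm2 (0.000407), Fosl1 (0.00468), Hk2 (0.0326) and Hmox1 (0.0499).

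In the following genes the change was largest in pH_BMP2ADV590. Among cartilage and matrix genes these were Hapln1 (1.76e-05), Col10a1 (1.76e-05), Col6a2 (0.000468), Mmp11 (0.00114), Timp3 (0.00131), Fmod (0.00194), Sox9 (0.00206), Fgfr3 (0.0031) and Col6a1 (0.00429). Among keratins they were Krt16 (4.78e-05), Krt15 (0.000114), Krt42 (0.000376) and Krt13 (0.000942). The others were Ccnd1 (0.000155), Scd1 (0.000528), Cryab (0.000549), Mef2c (0.000626), Hey1 (0.000631), Gsta4 (0.00404), Dhrs3 (0.0161), Erg (0.0249) and Map2 (0.0442).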

How the results depend on the processing

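The 4 counts reported were 298 genes called, 291 of them with the same sign in each hybrid, 161 in the common set and 530 that differed among hybrids. With no filter on low counts they were 509, 487, 244 and 875. With each library left out in turn they ranged from 69 to 359, 68 to 350, 52 to 213 and 336 to 663. With 1 mean for all 9 hybrid libraries the first 3 counts were 21, 21 and 21, and with pH_BMP2ADV590 left out of the mean they were 46, 46 and 42. With pH_BMP2ADV148b left out of the mean they were 548, 545 and 423, and with pH_BMP2ADV20a left out the common set held 251. DESeq2 called 427 genes, limma-voom 289, DESeq2-type size factors 293, a filter of 1 CPM in 3 libraries 303, and totals without Gm42418 297. A replicate block gave 178 called genes, 174 of the same sign, 114 common and 427 that differed among hybrids; 1 library of 12 correlated best with another of its own number, and the numbers are not a pairing in the labels.

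Of the called genes named by rule, 86 were followed through each alternative and none changed direction. Of the 86, 22 kept their call whichever library was left out and 12 under every other alternative. Among runs without 1 library, the first 3 counts were lowest without pH_BMP2ADV replicate 3 or 2, and all hybrid comparisons share these libraries. The cause was not tested. Scarce genes such as Bmp2, Icam1, Cldn1 and Rasgrf2 are limited by depth.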
